A study of Mus musculus with 39 samples.

Results

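The interferon response and antigen presentation genes described here are a list of 37 mouse genes followed in pancreatic islets. A gene was measured where at least 1 probe set of the array was annotated with its symbol and no other, and the probe set with the highest mean represented it. By that rule 33 of the 37 genes were measured, among 19938 genes in all. Gbp2, Gbp6, Isg15 and Ifi44 had no such probe set and are not analysed as members. The probe set rule uses the mean over all arrays and no difference between groups. The list of genes, like the pathway and marker lists used below, was chosen with earlier results of these data known. Counts from these lists beside the share of all genes are therefore descriptions and not independent tests.

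Islet RNA from 39 mouse samples had been hybridised to Affymetrix Mouse Gene 1.0 ST arrays, giving log2 intensities to 1 decimal. C57bl6/J females were sampled when non-pregnant (4 arrays), at pregnancy days 3.5 (3 arrays), 6.5, 9.5, 12.5, 15.5 and 18.5 (4 arrays each), and 10 days post partum while lactating (4 arrays). Non-pregnant mice of the Pdx1-creLate line at backcross generation N8 (4 arrays) were compared with control littermates of the same backcross (4 arrays). Replicates were labelled as biological. Pdx1-creLate is a transgene in which a Pdx1 promoter fragment drives Cre recombinase in beta cells, and the construct is known to include a minigene for human growth hormone. This is 1 transgenic line, and the labels give neither ages nor whether animals were pooled. The mean of 8 beta cell markers lay between 10.9 and 11.4 on every array. The acinar markers, which report exocrine tissue carried over with the islets, averaged between 5.33 and 11.9 over 9 genes. The number of arrays limits the precision, and p-values measure the spread between these samples.

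Interferons are secreted when cells sense viral nucleic acid or other danger. Type I interferons act through a complex that includes STAT2 and IRF9 and binds the interferon-stimulated response element (ISRE), and interferon gamma acts through factors that bind the gamma-activated site (GAS). The induced genes block viral replication, recruit lymphocytes and load peptides on MHC class I molecules. In islets this programme is known from autoimmune diabetes, in which beta cells display a raised class I level.

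Promoter windows from RefSeq (GRCm38.p6), running from 250 bases before to 50 after an annotated start, were matched to 25 of the 33 members, with 30 windows in all. Oas2, Mx2, Parp14, Usp18, Gbp8, Tap2, Cd74 and Ciita had no matched window. The ISRE core, searched on both strands as GAAA, any 2 bases and GAAA again, was present in 11 of the 30 windows (36.7%), against 3.44% of all 32851 windows. The GAS, searched as TTCNNNGAA, which reads the same on both strands, was present in 7 of the 30 windows (23.3%), against 8.3% of all windows. The 5 windows below belong to genes whose values are described in detail: 4 that hold a match, and Tap1, whose window overlaps that of Psmb9. Capitals mark the matches, and each sequence runs in the direction of its gene. Those with matches are Cxcl10 (chr5:92348840-92349139, minus strand), Ifit1 (chr19:34640639-34640938, plus strand), Ifit3 (chr19:34583279-34583578, plus strand) and Gbp7 (chr3:142530086-142530385, plus strand). Tap1 lies at chr17:34187306-34187605, plus strand.
Cxcl10: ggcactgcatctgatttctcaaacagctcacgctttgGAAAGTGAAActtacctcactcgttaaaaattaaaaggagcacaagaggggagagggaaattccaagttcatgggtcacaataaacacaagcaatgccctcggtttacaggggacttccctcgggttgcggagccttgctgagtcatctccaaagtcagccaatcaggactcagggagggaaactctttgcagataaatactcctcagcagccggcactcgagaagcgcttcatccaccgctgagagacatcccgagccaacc
Ifit1: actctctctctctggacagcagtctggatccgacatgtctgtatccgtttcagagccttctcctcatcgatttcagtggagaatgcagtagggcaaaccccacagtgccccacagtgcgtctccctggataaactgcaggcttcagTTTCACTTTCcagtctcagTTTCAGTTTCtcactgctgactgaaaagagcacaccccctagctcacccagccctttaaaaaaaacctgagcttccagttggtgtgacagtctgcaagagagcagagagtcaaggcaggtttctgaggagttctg
Ifit3: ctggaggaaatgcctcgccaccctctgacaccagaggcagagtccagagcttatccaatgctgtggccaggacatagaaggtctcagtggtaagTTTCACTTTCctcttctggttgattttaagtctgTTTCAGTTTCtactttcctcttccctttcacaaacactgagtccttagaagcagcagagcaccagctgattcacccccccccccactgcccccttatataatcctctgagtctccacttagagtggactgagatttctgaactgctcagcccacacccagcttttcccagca
Gbp7: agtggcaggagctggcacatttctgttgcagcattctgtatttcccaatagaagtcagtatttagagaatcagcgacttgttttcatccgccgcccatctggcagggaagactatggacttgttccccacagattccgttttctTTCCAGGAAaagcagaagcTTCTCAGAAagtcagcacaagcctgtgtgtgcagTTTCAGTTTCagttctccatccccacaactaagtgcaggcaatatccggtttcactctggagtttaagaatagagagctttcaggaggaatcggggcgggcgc
Tap1: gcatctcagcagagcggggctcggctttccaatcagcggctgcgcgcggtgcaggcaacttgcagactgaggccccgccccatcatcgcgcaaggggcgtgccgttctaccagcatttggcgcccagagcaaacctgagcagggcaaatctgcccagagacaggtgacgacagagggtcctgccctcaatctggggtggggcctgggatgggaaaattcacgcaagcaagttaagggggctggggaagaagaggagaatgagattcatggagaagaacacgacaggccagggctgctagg
The Cxcl10 match began 213 bases before the start. The Ifit1 window held ISRE matches 104 and 85 bases before the start, and the Ifit3 window 156 and 122 bases before it. Gbp7 had an ISRE match 53 bases before its start and GAS matches 106 and 87 bases before it. The ISRE core was further found in windows of Ifih1, Ddx58, Stat2, Rsad2, Bst2, Gbp3 and B2m. The GAS was further found in windows of Irf1, Irf8, Ifit2, Bst2, Ifi35 and Psmb8, and in Bst2 it overlapped an ISRE match. The Tap1 window shared 275 bases with the window of Psmb9 on the opposite strand, so these genes are read outward from 1 stretch of DNA. A match describes letters and is not a bound site.

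Over the 10 groups the members differed widely in how far their group means moved. These spans cover both the C57bl6/J arrays and the backcross cohort, whose controls differed from non-pregnant C57bl6/J islets (7.48 against 7.0 for Usp18, 8.08 against 8.95 for Cd74), and whether the cohorts were normalized together is not given in the sources used here. Gbp8 spanned 3.94 log2 units between its lowest and highest group mean, followed by Cxcl10 with 1.47, Irf7 with 1.35, Usp18 with 1.20, Ifit3 with 1.08 and Ifih1 with 1.0. The other 27 members spanned 0.98 (Cd74) or less. Psmb9, with 0.20, Ciita, with 0.23, and Tapbp, with 0.33, moved least. The group mean was highest at day 9.5 for Cxcl10, Irf7 and Ifit3, in Pdx1-creLate islets for Gbp8 and Usp18, and at day 6.5 for Ifih1.

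**Figure D1:**
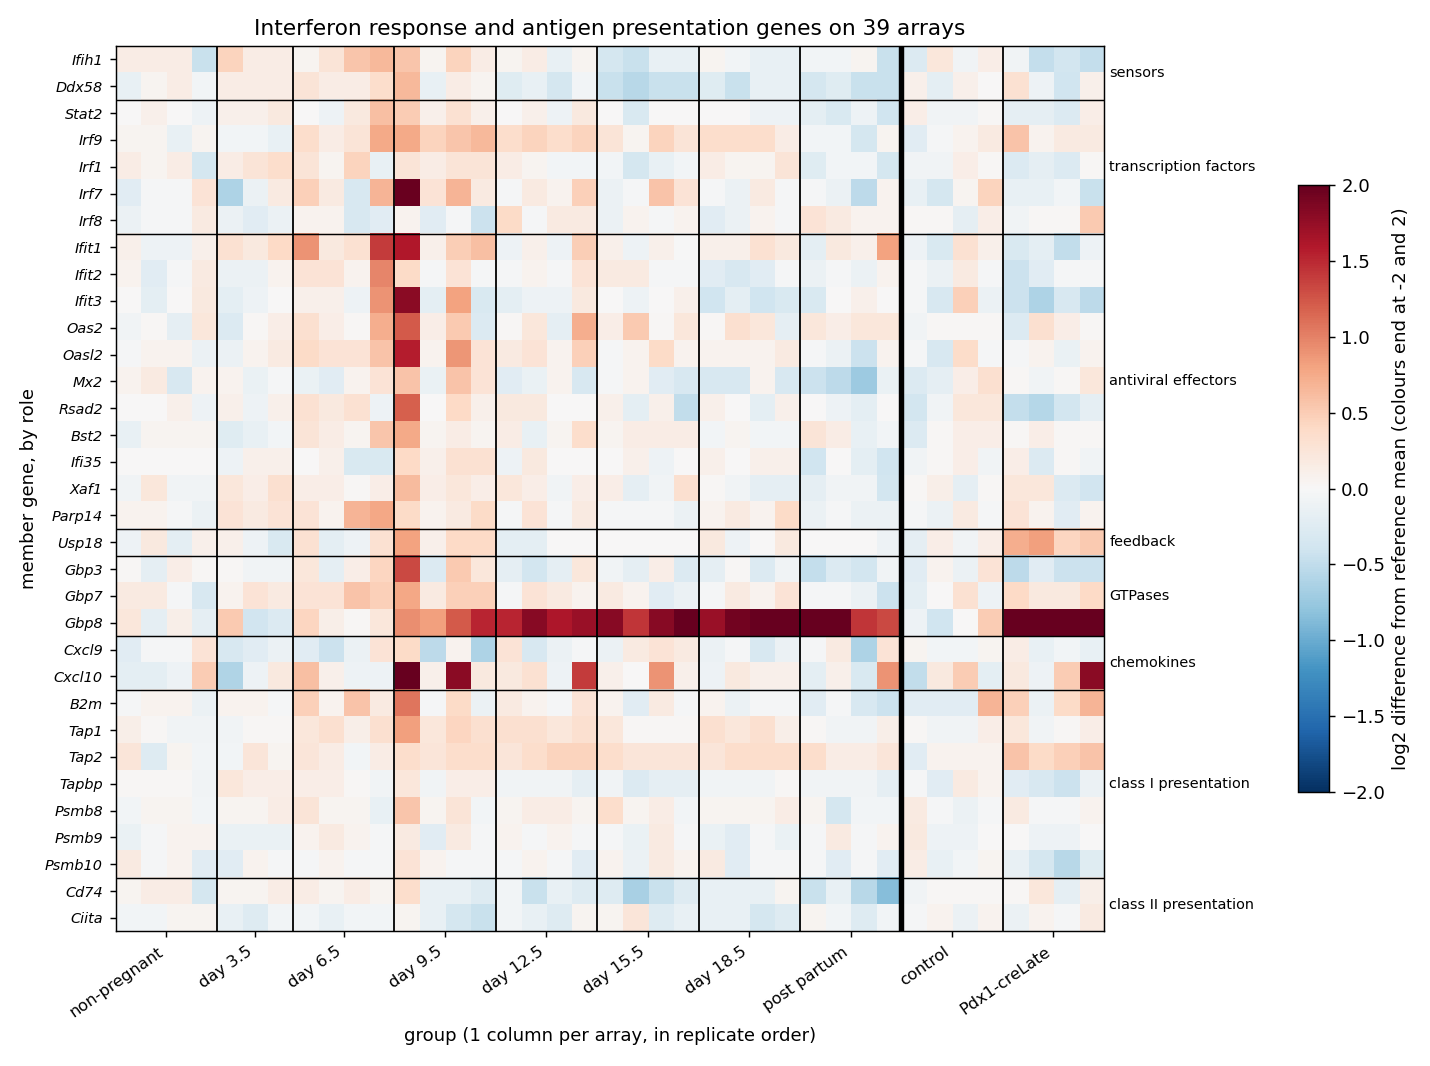
Each of the 33 genes (vertical axis, by role) on each of the 39 arrays (horizontal axis, by group), coloured by its log2 difference from the non-pregnant mean, or from the control mean for the control and Pdx1-creLate arrays; colours end at -2 and 2. The first day 9.5 column is red in most genes, and Gbp8 is red from day 9.5 on and in all 4 Pdx1-creLate columns.

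Pregnancy was compared with the non-pregnant state at each stage in 1 limma model of the 31 C57bl6/J arrays. A gene was called where its Benjamini-Hochberg adjusted p over all 19938 genes was under 0.05. All 7 comparisons with the non-pregnant state used the same 4 non-pregnant arrays, so their values stand side by side and are not independent of each other. At day 3.5 no member was called by limma, when 0.0201% of all genes were called higher and 0.0251% lower. At an unadjusted p under 0.05, 3 of the 33 members were higher and 0 lower, against 10.4% of all genes higher. At day 6.5, 1 member was called higher, against 0.502% of all genes, and none lower by limma (0 at an unadjusted p under 0.05), against 0.12%. It was Parp14, an ADP-ribosyltransferase induced by interferon, whose arrays read 7.0, 7.0, 6.9 and 6.8 when non-pregnant and 7.2, 7.0, 7.6 and 7.7 at day 6.5. The difference was 0.45 (SE 0.11, limma adjusted p = 0.0364), and the groups met at 7.0. The call was lost in 6 of the 8 fits that left out 1 array (adjusted p up to 0.214, without day 6.5 replicate 3). At this day 27 of the 33 differences were above 0, against 47.8% of all genes, with a median of 0.18 against 0 for all genes. At an unadjusted p under 0.05, 11 members were higher, against 6.91% of all genes. On replicates 1 to 4 of day 6.5, 2, 0, 4 and 11 members lay more than 0.5 above the non-pregnant mean. The shares of all genes were 0.802%, 0.637%, 1.77% and 0.963%. The mean of 8 pan-leukocyte markers ranged from 6.14 to 6.19 at day 6.5 and from 5.98 to 6.09 when non-pregnant. The acinar mean ranged from 11.1 to 11.4 and from 8.71 to 11.1. The part of these markers in the day 6.5 differences was not tested.

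At day 9.5, 11 of the 33 members rose and none was called lower by limma, when 11.6% of all genes were called higher and 7.74% lower. At an unadjusted p under 0.05, 22 members were higher, against 18.2% of all genes, and 1 was lower, against 17.1%. The genes that rose were Irf9, Irf7, Ifit1, Oasl2, Ifi35, Usp18, Gbp7, Gbp8, Cxcl10, Tap1 and Tap2. The median difference of the members was 0.30, against -0.03 over all genes. Differences were above 0 for 29 members, against 43.9% of all genes. The day 9.5 arrays did not overlap the non-pregnant arrays for 4 members (Irf9, Ifi35, Gbp8 and Tap1), against 8.97% of all genes. These differences rested unequally on the 4 day 9.5 arrays. Replicate 1 alone gave the highest of the 4 values in 27 of the 33 members (81.8%), against 18.1% of all genes. It was the highest or tied highest of all 39 arrays in 21 members, against 2.36% of all genes. The members' median difference from the non-pregnant mean was 0.63 on replicate 1, 0.08 on replicate 2, 0.35 on replicate 3 and 0.13 on replicate 4. Without replicate 1, limma called 6 members higher (18.2%), against 13.1% of all genes, and 1 member lower (Ciita, -0.32, adjusted p = 0.0208), against 9.87% of all genes. That share of higher calls is near the share of all genes. Irf9, Oasl2, Gbp7, Gbp8, Tap1 and Tap2 were still called, and the members' median difference was 0.17. Irf7, Ifit1, Ifi35, Usp18 and Cxcl10 were not. The 6 calls that held without replicate 1 also held without any other single day 9.5 or non-pregnant array. Of these 6, Irf9, Gbp8 and Tap1 held under every other alternative run. Gbp7 was lost with array spread as a covariate (adjusted p = 0.271), Oasl2 in a fit of the compared groups alone (adjusted p = 0.0758), and Tap2 after quantile normalization (adjusted p = 0.0882) or with array spread as a covariate (adjusted p = 0.0634). Without replicate 2, 16 members were called higher (48.5%), against 11.1% of all genes.

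**Figure D2:**
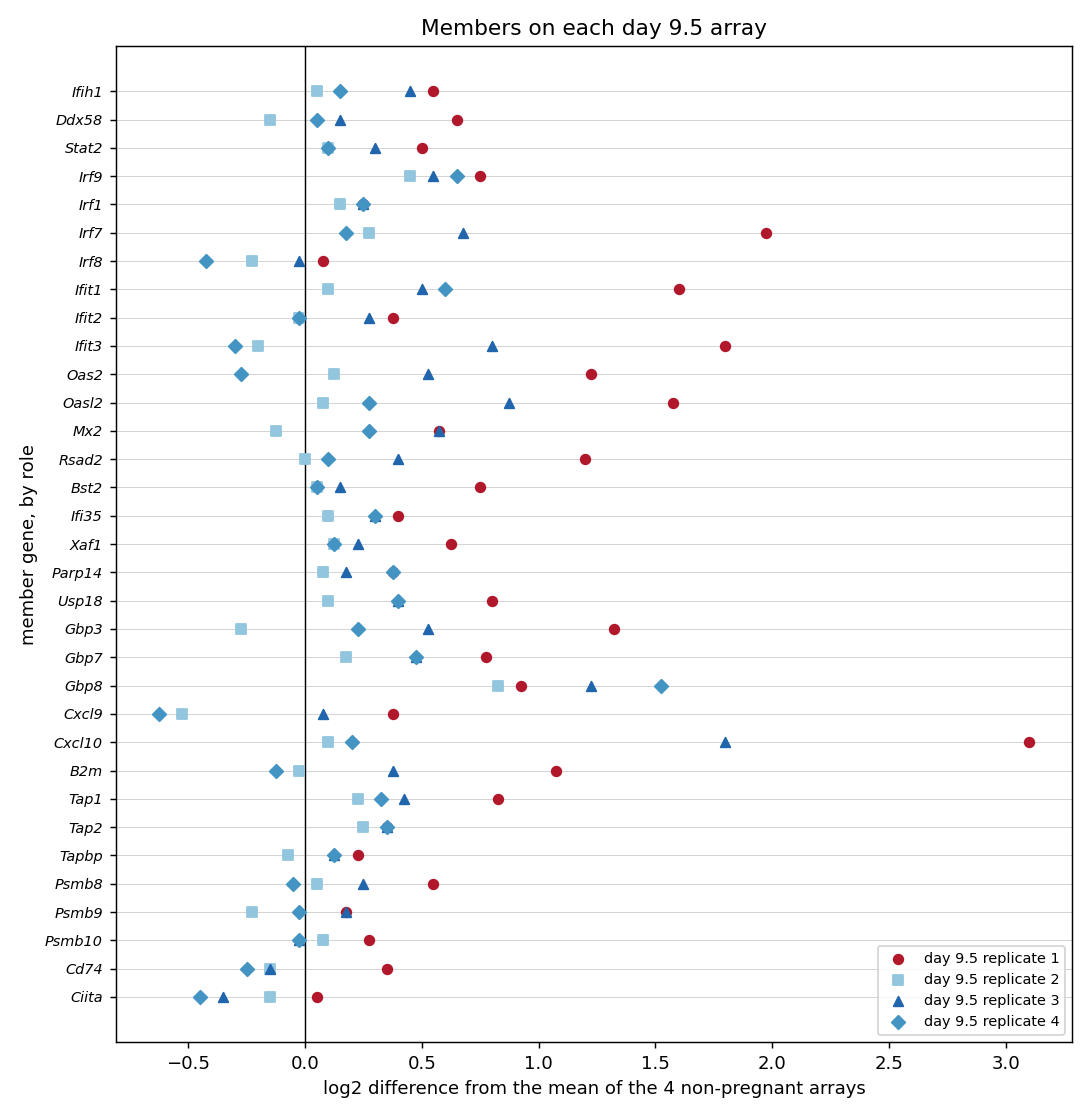
Log2 difference of each gene from the mean of the 4 non-pregnant arrays (horizontal axis) on each of the 4 day 9.5 arrays (1 symbol per array), with the 33 genes on the vertical axis by role. Replicate 1 (circles) alone lies furthest to the right in 27 of the 33 genes, and Gbp8 is an exception, with replicate 4 highest.

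Replicate 1 of day 9.5 also differed from the other 3 arrays of its group in markers of other cells. Its 9 acinar markers averaged 6.79, against 10.9, 9.52 and 9.43 on replicates 2, 3 and 4. Its 8 pan-leukocyte markers averaged 6.40, against 6.0, 6.04 and 6.04, and 7 of the 8 genes were alone highest on this array. Ptprc, the CD45 gene, read 6.2 there and between 5.7 and 6.0 on the others. The 8 macrophage markers averaged 6.78, against 6.54 to 6.63, and 5 of 8 were alone highest. The counts of markers alone highest on it were 3 of 6 for T cells, 3 of 5 for NK cells and 1 of 4 for B cells. They were 1 of 5 for dendritic cells, 0 of 2 for plasmacytoid dendritic cells and 0 of 4 for neutrophils. Of all genes, 18.1% were alone highest on this array of the group. Its T cell mean was 4.92, against 4.90, 4.73 and 4.50 on replicates 2, 3 and 4, and 4.93 to 5.12 when non-pregnant. Elsewhere, replicate 1 of day 3.5 had an acinar mean of 5.33 with a members' median difference of 0.03. The pan-leukocyte mean was 6.31 on control replicate 4 and 6.30 on Pdx1-creLate replicate 4, where the members' medians lay 0.05 and 0.08 above the control mean. On these arrays 1 and 6 members lay more than 0.5 above that mean, against 0.251% and 2.92% of all genes. More than 0.5 below it lay 0 and 1. The counts above were 0 on control replicates 1, 2 and 3, and 4, 2 and 1 on Pdx1-creLate replicates 1, 2 and 3. The control mean includes control replicate 4. Between day 9.5 and non-pregnant islets limma called 1 of the 8 pan-leukocyte markers higher (Lcp1), 2 of the 8 macrophage markers higher (C1qa and C1qc), 2 of the 6 T cell markers lower (Cd3d and Cd8a) and none of the 9 acinar markers. It also called 3 of the 8 beta cell markers higher (Pdx1, Mafa and G6pc2), and Zbtb46 of dendritic cells, Siglech of plasmacytoid dendritic cells and S100a9 of neutrophils lower. Of all genes, 11.6% were called higher and 7.74% lower in this comparison. With the pan-leukocyte mean of each array as a covariate, limma called Irf9, Oasl2, Usp18, Gbp7, Gbp8, Tap1 and Tap2 higher, against 15.1% of all genes, and Ciita lower, against 13.3%. In that fit Irf7 (0.41, adjusted p = 0.0771), Ifit1 (0.47, adjusted p = 0.0814), Ifi35 (0.23, adjusted p = 0.0647) and Cxcl10 (0.75, adjusted p = 0.06) were not called. With the acinar mean as a covariate, 8 members were called higher, against 11.1% of all genes, and the calls lost were Irf7 (0.69, adjusted p = 0.0572), Ifit1 (0.55, adjusted p = 0.0717) and Cxcl10 (1.10, adjusted p = 0.052). The part of the other cell types in the day 9.5 differences was not tested. In whole islets, a change in the number of cells of a type and a change in RNA per cell cannot be told apart.

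**Figure D3:**
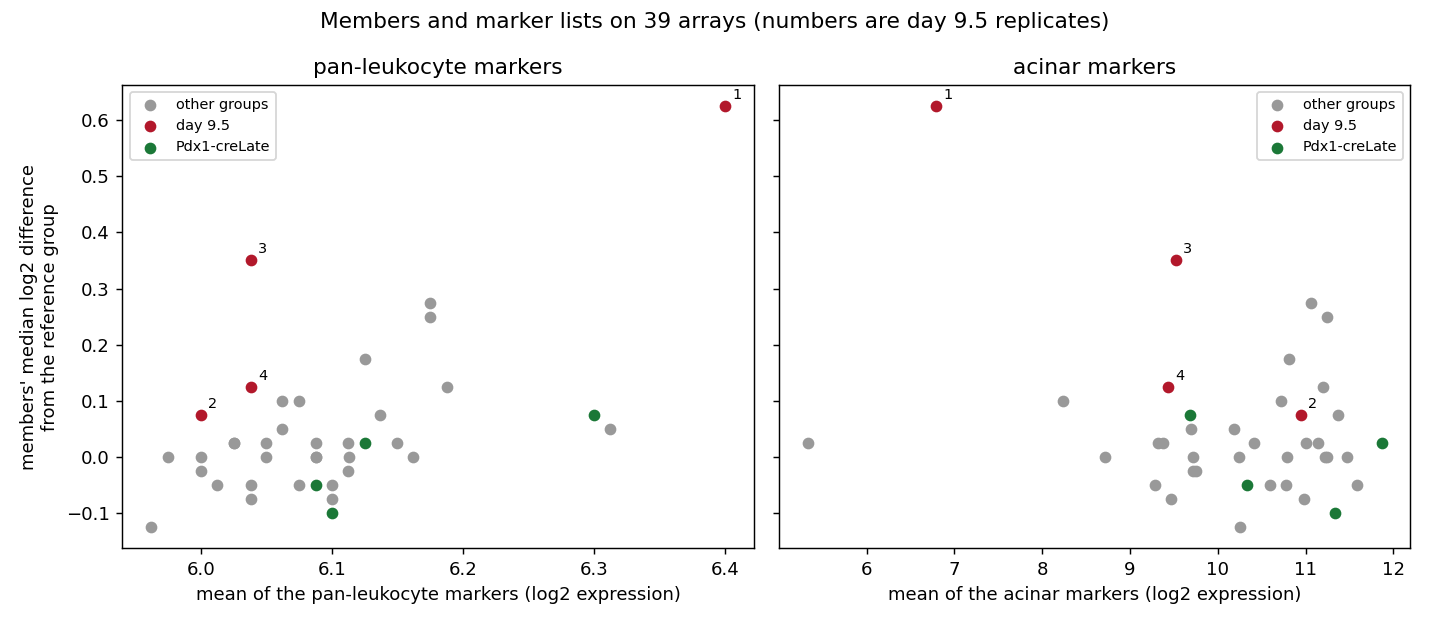
Mean log2 intensity of the pan-leukocyte (left) and acinar (right) markers on the horizontal axes, against the median log2 difference of the 33 genes from the non-pregnant or control mean on the vertical axis, with 1 point for each of the 39 arrays. Numbers mark the day 9.5 replicates, of which replicate 1 lies apart at a pan-leukocyte mean of 6.40, an acinar mean of 6.79 and a median of 0.63.

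The 2 sensors of viral RNA had their highest group means at day 6.5. Ifih1 encodes MDA5, which detects long double-stranded RNA in the cytosol. Its arrays read 7.3, 7.3, 7.3 and 6.7 when non-pregnant, 7.6, 7.3 and 7.3 at day 3.5, and 7.2, 7.4, 7.7 and 7.8 at day 6.5. They read 7.7, 7.2, 7.6 and 7.3 at day 9.5, 7.2, 7.3, 7.0 and 7.2 at day 12.5, and 6.8, 6.7, 7.0 and 7.0 at day 15.5. They read 7.2, 7.1, 7.0 and 7.0 at day 18.5 and 7.1, 7.1, 7.2 and 6.7 post partum. Every pregnancy group overlapped the non-pregnant arrays, and no stage was called for Ifih1 against the non-pregnant state. Ddx58 encodes RIG-I, which detects RNA with a 5′ triphosphate. It read 7.1, 7.3, 7.4 and 7.2 when non-pregnant and 6.8, 6.7, 6.8 and 6.8 at day 15.5, with no overlap. Ddx58 fell by 0.48 at day 15.5 (SE 0.11, limma adjusted p = 0.00358). Post partum it read 6.9, 7.0, 6.8 and 6.8, and fell by 0.38 (adjusted p = 0.0187), a call lost without non-pregnant replicates 2 or 3 or post partum replicate 4 (adjusted p up to 0.0739). Neither sensor was called at day 9.5.

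Among the 5 transcription factors, Irf9 and Irf7 rose at day 9.5, when 11.6% of all genes were called higher. Without replicate 1, Irf9 alone of the 5 was still called, against 13.1% of all genes. Irf9, the DNA-binding part of the complex that binds the ISRE, read 6.9, 6.9, 6.7 and 6.9 when non-pregnant and 7.6, 7.3, 7.4 and 7.5 at day 9.5. The lowest day 9.5 array lay above the highest non-pregnant one, and the difference was 0.60 (SE 0.10, 1.52-fold, adjusted p = 8.08e-05). Irf9 read 7.2, 7.0, 7.1 and 7.6 at day 6.5, where it was not called (0.38, adjusted p = 0.0917), and 7.2, 7.3, 7.2 and 7.3 at day 12.5, where it was 0.40 higher (adjusted p = 0.0128; 0.35 and 0.0639 without non-pregnant replicate 3). Day 12.5 and day 9.5 overlapped at 7.3 and their difference was not called (-0.20, adjusted p = 0.231).

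Irf7 encodes the factor that amplifies type I interferon production. Its arrays read 6.2, 6.4, 6.4 and 6.7 when non-pregnant, 5.8, 6.3 and 6.6 at day 3.5, and 6.9, 6.6, 6.1 and 7.1 at day 6.5. They read 8.4, 6.7, 7.1 and 6.6 at day 9.5, then 6.4, 6.6, 6.5 and 6.9 at day 12.5. They read 6.3, 6.4, 7.0 and 6.7 at day 15.5, 6.4, 6.3, 6.6 and 6.4 at day 18.5, and 6.4, 6.3, 5.9 and 6.5 post partum. The value of 8.4 was the highest of all 39 arrays, and the other day 9.5 arrays overlapped neighbouring days. Irf7 was 0.78 higher at day 9.5 (SE 0.25, 1.71-fold, adjusted p = 0.0281). Without replicate 1 the difference was 0.38 (adjusted p = 0.158), and the call was lost in 5 of the 8 fits that left out 1 array. Stat2, the partner of IRF9 in that complex, Irf1, an early interferon gamma target, and Irf8, a factor of myeloid cells, were not called at any stage. Their day 9.5 differences were 0.25, 0.23 and -0.15, and 0.17, 0.22 and -0.23 without replicate 1.

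The 11 antiviral effectors gave 3 calls at day 9.5, with a median difference of 0.33, when 11.6% of all genes were called higher. Without replicate 1 they gave 1 call (Oasl2), against 13.1% of all genes, and a median of 0.17. Ifit1, which binds viral RNA lacking a methylated cap, read 4.9, 4.7, 4.7 and 4.9 when non-pregnant and 6.4, 4.9, 5.3 and 5.4 at day 9.5. Replicate 2 of day 9.5 touched the non-pregnant range. The difference was 0.70 (SE 0.22, 1.62-fold, adjusted p = 0.0279), and without replicate 1 it was 0.40 (adjusted p = 0.142), the call being lost in 5 of 8 such fits. At day 6.5 Ifit1 read 5.7, 5.0, 5.1 and 6.2, all above the non-pregnant arrays, and was not called. Oasl2, of the oligoadenylate synthetase family, read 6.6, 6.7, 6.7 and 6.5 when non-pregnant and 8.2, 6.7, 7.5 and 6.9 at day 9.5. It was 0.70 higher (SE 0.18, adjusted p = 0.00616), and still 0.41 higher without replicate 1 (adjusted p = 0.0289). Ifi35 read 7.4 on all 4 non-pregnant arrays and 7.8, 7.5, 7.7 and 7.7 at day 9.5, without overlap, a difference of 0.28 (SE 0.09, adjusted p = 0.0341). The Ifi35 call was lost in 7 of the 8 fits that left out 1 array (adjusted p up to 0.0874, without day 9.5 replicate 4).

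Ifit3, which binds and stabilises IFIT1, read 5.0, 4.8, 5.0 and 5.2 when non-pregnant, 4.8, 4.9 and 5.0 at day 3.5, and 5.1, 5.1, 4.9 and 5.9 at day 6.5. At day 9.5 it read 6.8, 4.8, 5.8 and 4.7. Replicates 1 and 3 stood above every non-pregnant array, and replicates 2 and 4 lay at or below the lowest of them. The difference of 0.53 was not called. Later arrays read 4.8, 4.9, 4.9 and 5.2 at day 12.5, 5.0, 4.9, 5.0 and 5.1 at day 15.5, and 4.6, 4.8, 4.6 and 4.7 at day 18.5. Post partum they read 4.7, 5.0, 5.1 and 5.0. Mx2, a dynamin-like antiviral GTPase, read 4.1, 4.2, 3.7 and 4.1 when non-pregnant and 3.6, 3.5, 3.3 and 3.9 post partum. It fell by 0.45 post partum (SE 0.14, adjusted p = 0.035), with overlap between 3.7 and 3.9, and lost the call in 6 of the 8 fits that left out 1 array (adjusted p up to 0.117, without non-pregnant replicate 2). Among the effectors not called at day 9.5, the differences ran from 0.15 (Ifit2) to 0.53 (Ifit3). Rsad2 (viperin, an inhibitor of viral replication) differed by 0.43 there, Oas2 by 0.40, Xaf1 by 0.28, and Bst2 (tetherin, which holds budding virus at the membrane) by 0.25. Without replicate 1 these differences were 0.17 for Rsad2, 0.13 for Oas2, 0.16 for Xaf1 and 0.08 for Bst2, and 0.10 for Ifit3.

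Usp18 encodes the protease that removes ISG15 from proteins and dampens signalling at the type I interferon receptor. Its arrays read 6.9, 7.2, 6.8 and 7.1 when non-pregnant, 7.1, 6.9 and 6.7 at day 3.5, and 7.3, 6.8, 6.9 and 7.3 at day 6.5. They read 7.8, 7.1, 7.4 and 7.4 at day 9.5, then 6.8, 6.8, 7.0 and 7.0 at day 12.5. They read 7.0 on all 4 arrays at day 15.5, 7.2, 6.9, 7.0 and 7.2 at day 18.5, and 7.0, 7.0, 7.0 and 6.9 post partum. Usp18 rose by 0.43 at day 9.5 (SE 0.12, 1.34-fold, adjusted p = 0.0131), with replicate 2 inside the non-pregnant range. Between day 9.5 and day 12.5 the arrays did not overlap, and Usp18 fell by 0.53 (adjusted p = 0.0192), a call lost in 3 of the 8 fits that left out 1 array (adjusted p up to 0.0629). Without day 9.5 replicate 1 the difference from the non-pregnant state was 0.30 (adjusted p = 0.0594). The call was also lost without non-pregnant replicate 3 (0.36, adjusted p = 0.0519).

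The guanylate-binding proteins are GTPases that attack membranes of intracellular pathogens. Gbp8, measured by a probe set annotated with its symbol alone, had the widest course of all members. Its arrays read 5.7, 5.3, 5.6 and 5.3 when non-pregnant, 6.0, 5.1 and 5.2 at day 3.5, and 5.9, 5.6, 5.5 and 5.7 at day 6.5. They read 6.4, 6.3, 6.7 and 7.0 at day 9.5, 7.0, 7.3, 7.1 and 7.2 at day 12.5, and 7.3, 6.9, 7.3 and 7.5 at day 15.5. They read 7.2, 7.4, 7.6 and 7.5 at day 18.5 and 7.5, 7.6, 6.9 and 6.8 post partum. Every array from day 9.5 on lay above every earlier array, and neighbouring groups from day 9.5 on overlapped. Gbp8 was 1.13 higher at day 9.5 (SE 0.18, 2.18-fold, adjusted p = 2.92e-05), 1.68 at day 12.5 (adjusted p = 3.64e-08) and 1.78 at day 15.5 (adjusted p = 1.2e-08). It was 1.95 higher at day 18.5 (adjusted p = 7.99e-10) and 1.73 post partum (adjusted p = 3.49e-08). Day 9.5 was 0.93 above day 6.5 (adjusted p = 0.000581). The step from day 9.5 to day 12.5 was not called (0.55, adjusted p = 0.072). The lowest post partum array, at 6.8, lay above the highest non-pregnant one, at 5.7.

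Gbp8 lies in a family of close paralogs, and probes can pick up transcripts of more than 1 of them, so its identity is uncertain to that extent. A probe set annotated to Gbp4, Gbp6, Gbp8, Gbp9, Gbp10 and Gbp11 together read 5.8, 6.0, 5.7 and 6.0 when non-pregnant and 7.4, 6.4, 6.8 and 6.6 at day 9.5. Gbp7 read 7.3, 7.3, 7.1 and 6.8 when non-pregnant and 7.9, 7.3, 7.6 and 7.6 at day 9.5. It was 0.48 higher (SE 0.12, adjusted p = 0.00566), touching the non-pregnant arrays at 7.3, and 0.38 higher without replicate 1 (adjusted p = 0.026). Gbp3 read 5.4, 5.2, 5.5 and 5.4 when non-pregnant and 6.7, 5.1, 5.9 and 5.6 at day 9.5, and its difference of 0.45 was not called (0.16 without replicate 1). Replicate 2 of Gbp3 lay below all non-pregnant arrays.

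**Figure D4:**
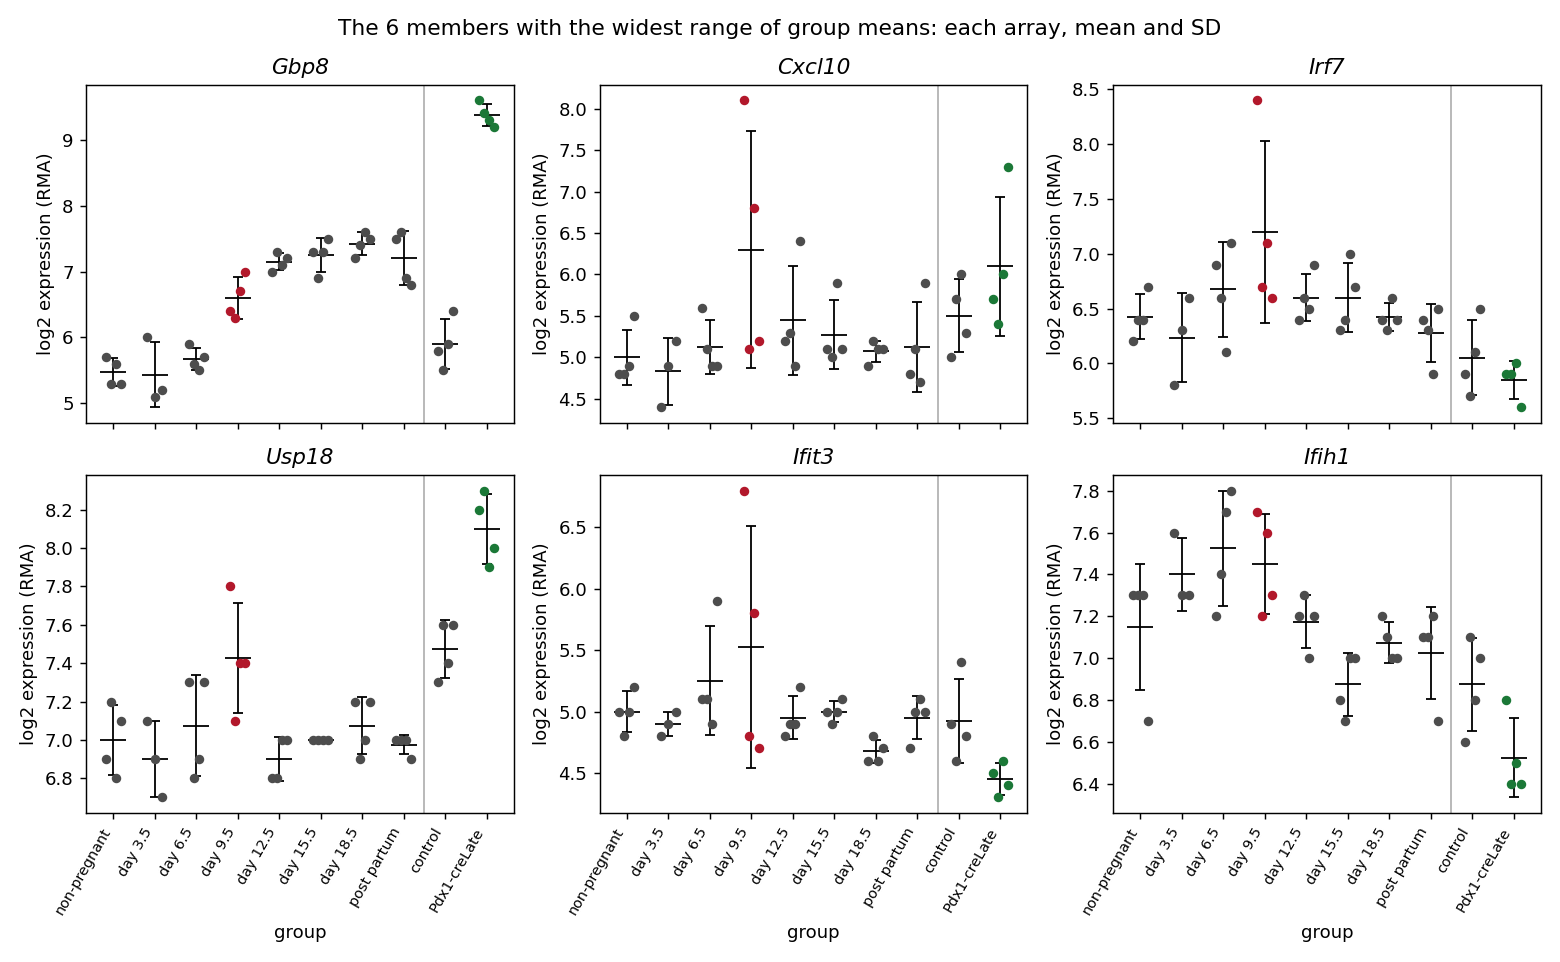
Log2 intensity on every array (points) with the mean and SD of each group (bars) for the 6 genes with the widest range of group means, over the 10 groups on the horizontal axis. Gbp8 steps up from day 9.5 and reads 9.2 to 9.6 in Pdx1-creLate islets, and Cxcl10, Irf7 and Ifit3 have their highest array at day 9.5, replicate 1.

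Cxcl10 encodes a chemokine that draws CXCR3-bearing T cells to inflamed islets. Its arrays read 4.8, 4.8, 4.9 and 5.5 when non-pregnant, 4.4, 4.9 and 5.2 at day 3.5, and 5.6, 5.1, 4.9 and 4.9 at day 6.5. At day 9.5 they read 8.1, 5.1, 6.8 and 5.2. Replicates 1 and 3 stood above every other C57bl6/J array, and replicates 2 and 4 lay inside the non-pregnant range. The arrays read 5.2, 5.3, 4.9 and 6.4 at day 12.5, 5.1, 5.0, 5.9 and 5.1 at day 15.5, and 4.9, 5.2, 5.1 and 5.1 at day 18.5. Post partum they read 4.8, 5.1, 4.7 and 5.9. The day 9.5 mean was 6.30 ± 1.43 (SD, n = 4), against 5.0 ± 0.34 (SD, n = 4), a difference of 1.30 (SE 0.40, 2.46-fold, limma adjusted p = 0.022). Without replicate 1 it was 0.70 (adjusted p = 0.118), and without replicate 3 it was 1.13 (adjusted p = 0.0786). Cxcl9, which encodes another ligand of CXCR3, was not called at any stage and differed by -0.18 at day 9.5 (-0.36 without replicate 1).

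Of the 7 class I presentation genes, the 2 of the peptide transporter rose at day 9.5, when 11.6% of all genes were called higher. Both were still called without replicate 1, against 13.1% of all genes. Tap1 and Tap2 encode the subunits of the pump that carries peptides into the endoplasmic reticulum. Tap1 read 6.8, 6.7, 6.6 and 6.6 when non-pregnant, 7.5, 6.9, 7.1 and 7.0 at day 9.5, and 7.0, 7.0, 6.9 and 7.0 at day 12.5. Neither day overlapped the non-pregnant arrays, and the differences were 0.45 at day 9.5 (SE 0.09, 1.37-fold, adjusted p = 0.000642) and 0.30 at day 12.5 (adjusted p = 0.0431). The day 12.5 call of Tap1 was lost in 7 of the 8 fits that left out 1 array (adjusted p up to 0.127, without non-pregnant replicate 3). Tap2 read 7.6, 7.1, 7.4 and 7.3 when non-pregnant and 7.7, 7.6, 7.7 and 7.7 at day 9.5, touching at 7.6. It was higher by 0.33 at day 9.5 (adjusted p = 0.00749), 0.38 at day 12.5 (adjusted p = 0.00421), 0.28 at day 15.5 (adjusted p = 0.037) and 0.33 at day 18.5 (adjusted p = 0.00935). Non-pregnant replicate 2 had the lowest Tap2 value, and without it the differences were 0.24 at day 9.5 (adjusted p = 0.0443), 0.29 at day 12.5 (adjusted p = 0.0406), 0.19 at day 15.5 (adjusted p = 0.204) and 0.24 at day 18.5 (adjusted p = 0.0644). The day 15.5 call was lost in 7 of the 8 fits that left out 1 array.

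B2m, the light chain of class I molecules, read 9.8, 9.9, 9.9 and 9.7 when non-pregnant and 10.9, 9.8, 10.2 and 9.7 at day 9.5, and was not called. Psmb8, Psmb9 and Psmb10 encode the catalytic subunits of the immunoproteasome, and their day 9.5 differences were 0.20, 0.03 and 0.08, or 0.08, -0.03 and 0.01 without replicate 1. Psmb9 stayed between 7.5 and 8.0 on all 39 arrays, and it shares most of its promoter window with Tap1. It read 7.6, 7.7, 7.8 and 7.8 when non-pregnant and 7.9, 7.5, 7.9 and 7.7 at day 9.5, and these groups overlapped. Tapbp, which encodes tapasin, the bridge between class I molecules and the transporter, read 10.2, 10.2, 10.2 and 10.1 when non-pregnant and 10.4, 10.1, 10.3 and 10.3 at day 9.5. No immunoproteasome gene, nor B2m or Tapbp, was called at any stage against the non-pregnant state.

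The class II genes gave no call at day 9.5 in the fit of all arrays. Cd74, the invariant chain that guards the class II groove, read 9.0, 9.1, 9.1 and 8.6 when non-pregnant, 8.7, 8.3, 8.5 and 8.7 at day 15.5, and 8.5, 8.8, 8.4 and 8.1 post partum. It fell by 0.40 at day 15.5 (SE 0.13, adjusted p = 0.0473) and by 0.50 post partum (adjusted p = 0.00882), with overlap both times. The first call was lost in 5 of the 8 fits that left out 1 array (adjusted p up to 0.182, without day 15.5 replicate 2), and the second without post partum replicate 4 (-0.38, adjusted p = 0.0604). Ciita, the class II transactivator, read 5.5, 5.5, 5.6 and 5.6 when non-pregnant and 5.6, 5.4, 5.2 and 5.1 at day 9.5. Its group means stayed within 0.23 of each other. Without day 9.5 replicate 1 limma called Ciita lower (-0.32, adjusted p = 0.0208). It was also called lower with the pan-leukocyte mean as a covariate (-0.32, adjusted p = 0.00965). Cd74 differed by -0.18 at day 9.5 without replicate 1 and was not called.

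The later stages held fewer member calls than day 9.5. The share of all genes called higher was also smaller at each of them, though not to the same extent. At day 9.5, 11.6% of all genes were called higher and 7.74% lower. At day 12.5, 4 of 33 members rose (Irf9, Gbp8, Tap1 and Tap2), against 4.08% of all genes called higher, and none fell by limma (0 at an unadjusted p under 0.05), against 1.19%. At day 15.5, 2 rose (Gbp8 and Tap2), against 3.7%, and 2 fell (Ddx58 and Cd74), against 4.53%. At day 18.5, 2 rose (Gbp8 and Tap2), against 8.59%, and none fell by limma (2 at an unadjusted p under 0.05), against 2.5%. Post partum, 1 rose (Gbp8), against 4.46%, and 3 fell (Ddx58, Mx2 and Cd74), against 7.78%. The post partum median over the members was -0.10, against 0.03 for all genes.

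The transient at day 9.5 was tested as the day 9.5 mean against the mean of days 6.5 and 12.5. In this contrast 4 of 33 members were higher (Mx2, Ifi35, Usp18 and Cxcl10), against 7.92% of all genes, and none was called lower by limma, against 7.06% (1 at an unadjusted p under 0.05). Ifi35 was 0.33 higher (adjusted p = 0.00811), Usp18 0.44 (adjusted p = 0.0061), Cxcl10 1.01 (adjusted p = 0.0449) and Mx2 0.40 (adjusted p = 0.0288). Without day 9.5 replicate 1, Ifi35 and Usp18 were still called, and Cxcl10 (0.41, adjusted p = 0.319) and Mx2 (0.32, adjusted p = 0.0922) were not. Ifi35 and Usp18 held in all 12 fits that left out 1 array, Cxcl10 lost its call in 8 of them and Mx2 in 5. Irf7 was 0.56 above its neighbours (adjusted p = 0.0724) and Ifit3 0.43 (adjusted p = 0.173). Irf9, Tap1 and Tap2, which rose at day 9.5 and were still higher at day 12.5, were not called in this contrast. Against day 6.5 alone, 4 members were higher (Ifi35, Usp18, Gbp8 and Cxcl10), against 10.5% of all genes, and none lower by limma (0 at an unadjusted p under 0.05), against 6.93%. Without day 9.5 replicate 1, Gbp8 and Ifi35 were still called against day 6.5, and Usp18 (0.23, adjusted p = 0.166) and Cxcl10 (0.58, adjusted p = 0.213) were not. From day 9.5 to day 12.5, Ddx58 and Usp18 fell and no other member was called, against 1.51% of all genes called lower and 1.72% called higher. The Ddx58 call was lost in 7 of the 8 fits that left out 1 array (adjusted p up to 0.118, without day 9.5 replicate 1).

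Members whose promoter window held the ISRE core gave 3 calls of 11 at day 9.5, when 11.6% of all genes were called higher, with a median difference of 0.43. The 14 members with a window and no ISRE match gave 5 calls, with a median of 0.21. The 8 members with no matched window gave 3 calls, with a median of 0.33. Without day 9.5 replicate 1 the calls higher were 1 of 11, 3 of 14 and 2 of 8, against 13.1% of all genes, and the medians 0.17, 0.12 and 0.23. No test was made of the difference between these sets.

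The Pdx1-creLate comparison set islets of non-pregnant mice of that line against those of control littermates. It was fitted on its own 8 arrays. The parts of the construct and other traits of the line cannot be told apart in it. The transgene effect named below is this difference. Of the 33 members, 3 rose and none was called lower by limma, when 2.86% of all genes were called higher and 3.72% lower. The members' median difference was 0, against -0.03 for all genes, with 16 members above 0, against 39.6% of all genes, and 16 below. At an unadjusted p under 0.05, 4 members were higher, against 7.18% of all genes, and 6 lower, against 11.6%. Gbp8 read 5.8, 5.5, 5.9 and 6.4 in controls and 9.6, 9.4, 9.3 and 9.2 in Pdx1-creLate islets. The groups lay far apart, at 5.90 ± 0.37 (SD, n = 4) and 9.38 ± 0.17 (SD, n = 4), a difference of 3.48 (SE 0.16, 11.1-fold, limma adjusted p = 4.36e-09). Every Pdx1-creLate array exceeded every array of the pregnancy series for Gbp8. The probe set shared by 6 Gbp genes read 5.7, 5.9, 6.1 and 6.2 in controls and 8.8, 8.5, 8.2 and 8.5 in Pdx1-creLate islets.

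Usp18 read 7.3, 7.6, 7.4 and 7.6 in controls and 8.2, 8.3, 7.9 and 8.0 in Pdx1-creLate islets. The groups did not overlap, and Usp18 was 0.63 higher (SE 0.11, 1.54-fold, adjusted p = 0.00244). Tap2 read 7.3, 7.6, 7.6 and 7.6 in controls and 8.1, 7.9, 8.0 and 8.1 in Pdx1-creLate islets, also without overlap. It was 0.50 higher (SE 0.10, 1.41-fold, adjusted p = 0.00546). These 3 members were the ones whose groups did not overlap upward, against 3.73% of all genes, and all 3 calls held in each of the 8 fits that left out 1 array. The pan-leukocyte mean ranged from 6.04 to 6.31 in controls and from 6.09 to 6.30 in Pdx1-creLate islets, with 1 of 8 markers called higher (Lcp1). The macrophage mean ranged from 6.35 to 6.74 and from 6.64 to 6.79, with 1 of 8 called higher (Lyz2), and 3 of 8 beta cell markers were called lower (Ucn3, Slc2a2 and Mafa). Sst of delta cells (-0.55, adjusted p = 0.0156) and Col1a2 of stellate cells (-0.35, adjusted p = 0.049) were also called lower. Of all genes, 2.86% were called higher and 3.72% lower. The part of these marker differences in the Gbp8, Usp18 and Tap2 values was not tested.

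The other members were not called in Pdx1-creLate islets, and several of those highest at day 9.5 had negative differences here. Ifit3 read 4.9, 4.6, 5.4 and 4.8 in controls and 4.5, 4.3, 4.6 and 4.4 in Pdx1-creLate islets (-0.48, adjusted p = 0.0669). Gbp3 read 5.3, 5.6, 5.4 and 5.8 against 5.0, 5.3, 5.1 and 5.1 (-0.40, adjusted p = 0.0548). Rsad2 read 6.4, 6.7, 7.0 and 7.0 against 6.3, 6.2, 6.4 and 6.6 (-0.40, adjusted p = 0.106). Each of these pairs of groups overlapped. Ifih1 read 6.6, 7.1, 6.8 and 7.0 in controls and 6.8, 6.4, 6.5 and 6.4 in Pdx1-creLate islets (-0.35, adjusted p = 0.123). Irf7 read 5.9, 5.7, 6.1 and 6.5 in controls and 5.9, 5.9, 6.0 and 5.6 in Pdx1-creLate islets. Cxcl10 read 5.0, 5.7, 6.0 and 5.3 in controls and 5.7, 5.4, 6.0 and 7.3 in Pdx1-creLate islets, a difference of 0.60 that was not called (adjusted p = 0.341). Among the least variable members, Tapbp read 10.3, 10.1, 10.5 and 10.4 in controls and 10.1, 10.0, 9.9 and 10.2 in Pdx1-creLate islets. Psmb9 read 8.0, 7.7, 7.7 and 7.8 against 7.8, 7.7, 7.7 and 7.8, and Ciita 5.5, 5.6, 5.4 and 5.6 against 5.4, 5.6, 5.5 and 5.7.

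The transgene effect was then set against the day 9.5 effect in a model of all 39 arrays, as the difference between the 2 differences. Of the 33 members, 1 was more positive with the transgene, against 4.04% of all genes, and 8 were more negative, against 8.49%. Gbp8 was more positive by 2.35 (adjusted p = 1.44e-08). The more negative ones were Ifit3 (-1.0, adjusted p = 0.0464), Ifit1 (-0.98, adjusted p = 0.0293), Gbp3 (-0.85, adjusted p = 0.0209), Rsad2 (-0.83, adjusted p = 0.013), Ifih1 (-0.65, adjusted p = 0.0236), Psmb10 (-0.40, adjusted p = 0.0492), Tap1 (-0.38, adjusted p = 0.0441) and Tapbp (-0.38, adjusted p = 0.0174). Without day 9.5 replicate 1, Gbp8, Rsad2 (adjusted p = 0.0317) and Tapbp (adjusted p = 0.038) were still called, and the other 6 were not. Among all 16 fits that left out 1 array, the call was lost in 13 for Ifit3, 12 for Psmb10, 10 for Tap1, 4 for Ifih1, 3 for Ifit1, 1 for Gbp3, 1 for Tapbp (adjusted p = 0.0503, without control replicate 3) and 0 for Rsad2 and Gbp8.

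**Figure D5:**
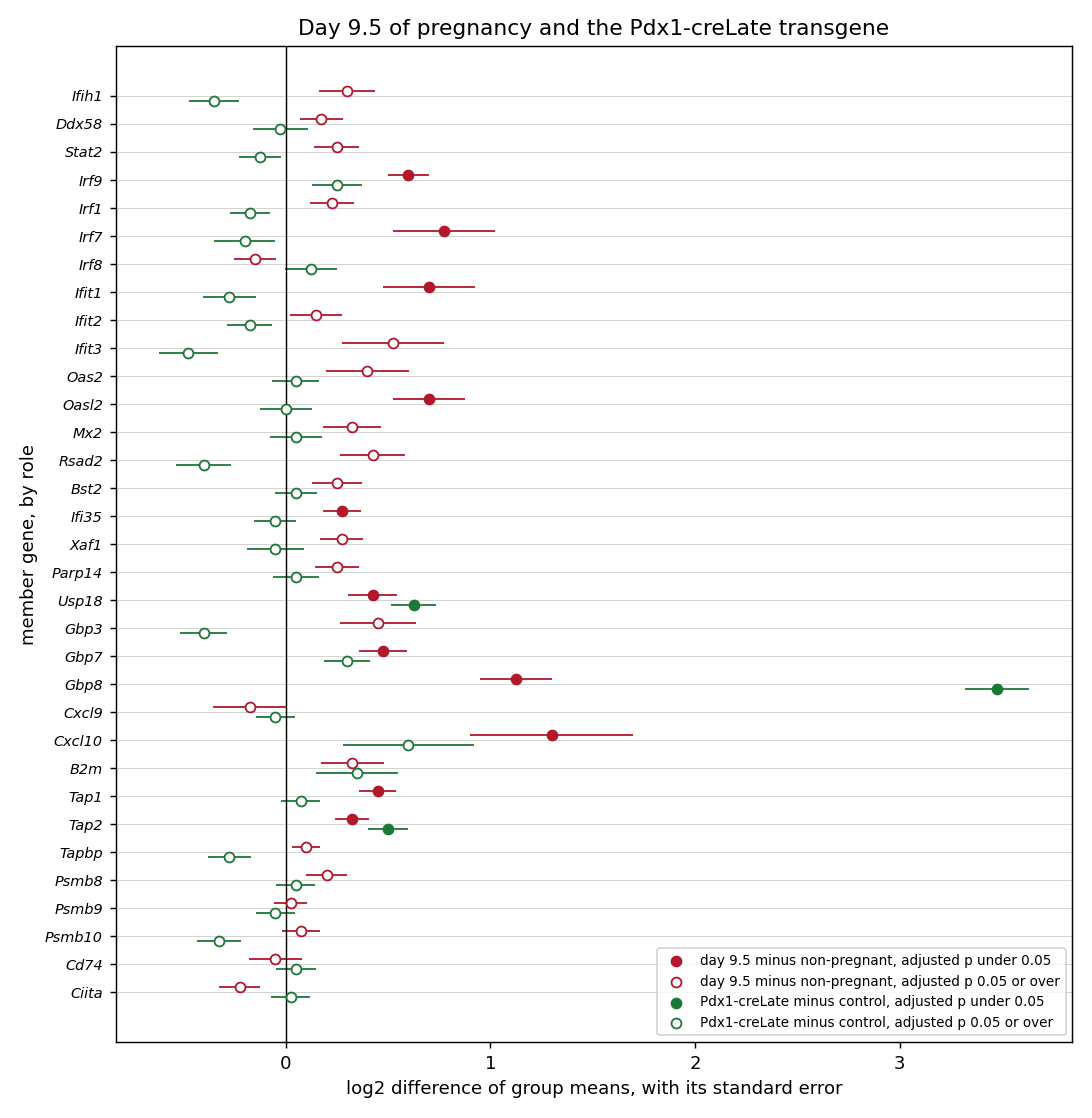
Log2 difference of group means with its standard error (horizontal axis) for each of the 33 genes (vertical axis, by role), at day 9.5 against non-pregnant (red) and in Pdx1-creLate against control islets (green), filled where the adjusted p is under 0.05. Gbp8 stands apart at 1.13 and 3.48, and for Ifit3, Ifit1, Gbp3 and Rsad2 the green point lies below 0 and the red point above.

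The rest of the pathway was counted over 107 further genes. They include receptors, constitutive proteasome subunits and other genes around the pathway, so they are not all genes induced by interferon. At day 9.5, 31 of the 107 rose and 2 fell, when 11.6% of all genes were called higher and 7.74% lower. The 5 with the largest rises were Rtp4 (0.93), Ddx60 (0.90), Isg20 (0.85), Gbp11 (0.80) and Iigp1 (0.65). Nlrc5, the class I transactivator, fell by 0.40 (adjusted p = 0.0403), and Socs1, an inhibitor of JAK kinases, fell by 0.25 (adjusted p = 0.0295). Without day 9.5 replicate 1, 22 of the 107 were called higher, against 13.1% of all genes, and 8 lower, against 9.87%. In that fit Rtp4 (0.71), Ddx60 (0.68), Isg20 (0.91), Gbp11 (0.78), Nlrc5 and Socs1 were still called, and Iigp1 was not (0.42, adjusted p = 0.0534). By class, on all arrays, 9 of 34 antiviral effectors, 4 of 6 GBP and IRG GTPases, 4 of 5 ISGylation and PARP genes and 3 of 3 constitutive proteasome subunits rose. Without replicate 1 these counts were 8, 2, 0 and 3, so that no ISGylation or PARP gene was then called. In that fit 3 of 6 receptors and 4 of 11 MHC class I and loading genes were called higher, against 13.1% of all genes. Of those 11, 1 was called lower. No interferon ligand (0 of 6), class II gene (0 of 10) or further chemokine (0 of 5) rose by limma on all arrays. These counts are against the non-pregnant state, and at an unadjusted p under 0.05 the counts of higher genes were 0, 1 and 0. Against the mean of days 6.5 and 12.5, 18 of the 107 were called higher, against 7.92% of all genes. In that contrast 3 were called lower, against 7.06%. The class II genes H2-Ab1 (0.40, adjusted p = 0.0123) and Rfxap (0.23, adjusted p = 0.0175) were higher. The ligand Ifng was lower (-0.21, adjusted p = 0.0425). H2-Ab1 read 9.8, 9.2, 9.3 and 9.1 on the day 9.5 arrays. These calls were not examined without replicate 1. In Pdx1-creLate islets 6 of the 107 rose, against 2.86% of all genes, and 6 fell, against 3.72%. The largest rises were in guanylate-binding proteins, Gbp11 (2.95), Gbp4 (1.90) and Gbp9 (1.28), whose sequences may share signal with Gbp8. The other rises were in Cxcl11 (1.15), Ifngr2 (0.60) and Isg20 (0.55). The falls were in Ifitm2 (-0.55), Tor3a (-0.43), Irgm1 (-0.40), Ifi27l2a (-0.38), Iigp1 (-0.38) and Ube2l6 (-0.38). At day 3.5 none of the 107 was called by limma (11 higher and 4 lower at an unadjusted p under 0.05), and at day 6.5, 2 rose, against 0.502% of all genes. At day 12.5, 5 rose, against 4.08%. At day 15.5, 6 rose, against 3.7%, and 1 fell, against 4.53%. At day 18.5, 7 rose, against 8.59%, and 1 fell, against 2.5%. Post partum, 4 rose, against 4.46%, and 6 fell, against 7.78%. Gbp11 was called higher at day 12.5 (0.88), day 15.5 (1.30), day 18.5 (1.43) and post partum (0.98).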

How the data were processed

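The values are log2 intensities of 35556 probe sets to 1 decimal, deposited by the authors after RMA summarisation in Affymetrix Expression Console, per the submitters' processing notes. Which arrays were normalized together is not given in the sources used here. Array medians lay between 5.8 and 6.0, so no further scaling was applied. Probe sets carried 1 gene symbol (21789), several (1621) or none (12146); those with 1 symbol gave 19938 genes, each represented by its probe set with the highest mean. Irf1 was the member with 2 such probe sets.

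Groups were compared on the log2 scale with limma 3.58.1 (lmFit and eBayes) in R 4.3.3, with Benjamini-Hochberg adjustment over all genes and a threshold of 0.05. The Pdx1-creLate comparison used its 8 arrays, the pregnancy comparisons the 31 C57bl6/J arrays, and the difference between both effects all 39. The fits were tested on simulated data. Tables and figures used Python 3.11.15, numpy 2.4.6, pandas 2.3.3 and matplotlib 3.10.9.

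The members and the lists of pathway and marker genes were chosen with earlier results of these data known. Every member is described; the 6 with the widest and the 3 with the narrowest range of group means are shown on every array. Of the 107 other pathway genes, up to 5 called in a direction are named by size, or all 6 in Pdx1-creLate islets. Nlrc5 and Socs1 are named whatever their result. The class II genes and the ligand called at day 9.5 against its neighbours are also named. Alternatives covered normalization, low values, probe set choice, the variance model, array weights, array spread, acinar and leukocyte covariates, the samples in a fit, a replicate block and leaving out each array.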

Additional observations from a re-analysis of the deposited data

Results flagged for a closer look

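In 12 of 117 groups of 4 arrays examined, 1 array lay far from the other 3 by Dixon's criterion, which chance meets in about 1 in 20 groups; the values carry 1 decimal, so that a step of 0.1 can meet it. For Cxcl10 these were 5.5 in a non-pregnant array, where the others read 4.8 to 4.9, and 5.9 at day 15.5, where the others read 5.0 to 5.1. Usp18 read 6.9 on 1 post partum array and 7.0 on the others, and Ifih1 read 6.7 on 1 non-pregnant array and 7.3 on the others. Tapbp stood apart at 10.1 in the non-pregnant group, 10.0 at day 12.5, 10.2 at day 18.5 and 10.0 post partum, and Ciita at 5.4 at day 6.5, each by 0.1. The median over the members was 7.0 on 1 day 12.5 array. The pan-leukocyte mean was 6.40 on day 9.5 replicate 1, and the acinar mean was 9.71 on 1 day 18.5 array.

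The transgene effect and the day 9.5 effect differed by the interaction test for 9 members. The difference was 2.35 for Gbp8, -0.65 for Ifih1, -0.98 for Ifit1, -1.0 for Ifit3, -0.83 for Rsad2, -0.85 for Gbp3, -0.38 for Tap1, -0.38 for Tapbp and -0.40 for Psmb10. Without day 9.5 replicate 1, only Gbp8, Rsad2 and Tapbp were still called.

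A probe set outside the comparisons, annotated to Gbp4, Gbp6, Gbp8, Gbp9, Gbp10 and Gbp11 together, was above its control level. It averaged 6.80 at day 9.5, against 5.88 when non-pregnant, and 8.50 in Pdx1-creLate islets, against 5.98 in controls.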

How the results depend on the processing

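No called difference of a member turned its direction under any alternative run; of 998 alternative values for 48 called differences, 764 stayed past the threshold and 234 did not, and 14 differences stayed past it throughout. These include Gbp8 in every comparison where it was called, Irf9 and Tap1 at day 9.5, Usp18 and Tap2 with the transgene, and Ddx58 at day 15.5. Of 239 alternative counts of members called, 170 stayed within 1.5 times; the others follow, and except where fewer arrays or genes entered the fit the cause was not tested. With the transgene, 5 members were called under a trended and robust variance and with all 39 arrays in 1 model. At day 6.5, 0 were called by limma after median centring, with array weights, with the leukocyte covariate or with the compared groups alone, and 2 under a trended and robust variance. The compared groups alone gave 6 at day 9.5, 2 at day 15.5, 2 post partum, 2 for day 9.5 against day 6.5, 0 for day 12.5 against day 9.5 and 2 for the transgene against day 9.5 effect. At day 18.5, 4 were called without the dimmest 25% of genes, after median centring or with array weights, and 5 with the leukocyte covariate. Array spread as a covariate gave 2 post partum, 1 for day 9.5 against its neighbours and 0 for day 12.5 against day 9.5. For day 9.5 against its neighbours, median centring and the leukocyte covariate gave 7, and the acinar covariate 2. Against day 6.5, array weights and the acinar covariate gave 2, and the leukocyte covariate 9. For day 12.5 against day 9.5, quantile normalization and the acinar covariate gave 1, array weights 6 and the leukocyte covariate 5. For the transgene against day 9.5 effect, quantile normalization gave 5 and the acinar covariate 2.

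Leaving out 1 array at a time gave counts from 3 to 5 for the transgene (highest without control replicate 1), 0 to 0 at day 3.5, 0 to 2 at day 6.5 (lowest without day 6.5 replicate 3), 7 to 16 at day 9.5 (without day 9.5 replicates 1 and 2), 2 to 4 at day 12.5 (lowest without non-pregnant replicate 3), 2 to 4 at day 15.5 (lowest without day 15.5 replicate 2), 1 to 3 at day 18.5 (lowest without non-pregnant replicate 2) and 2 to 4 post partum (lowest without post partum replicate 4). They ran from 2 to 13 for day 9.5 against its neighbours (without day 6.5 replicate 2 and day 9.5 replicate 2), 2 to 8 against day 6.5 (without day 6.5 replicate 3 and day 9.5 replicate 2), 0 to 8 for day 12.5 against day 9.5 (without day 9.5 replicates 3 and 2) and 3 to 10 for the difference of both effects (without day 9.5 replicate 1 and control replicate 2). The samples share only a replicate number: deviations of same-numbered arrays correlated between -0.34 and 0.31, over 0.1 in 7 of 39 pairs. With the replicate number as a block, 12 members were called at day 9.5, 4 with the transgene and 1 for day 12.5 against day 9.5.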
